A study of Mus musculus with 16 samples.

Results

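The comparison described here set the mammary gland of mice kept alone against the mammary gland of mice kept in groups, at 15 weeks of age. It used 8 of the 16 arrays of the series, namely the 4 titled as isolated and the 4 titled as grouped at that age, and all 18193 genes with a probe set of their own. The other 8 arrays hold the same contrast at 20 weeks and served only to ask whether a difference recurred. All mice were female FVB/N animals homozygous for the SV40 large T antigen driven by a C3(1) fragment of a rat promoter, that of prostatic steroid binding protein, so both housing groups carried the transgene and there was no wild-type group. Litters were weaned, tested in an open field, balanced by behaviour and then housed singly or together. Isolated mice lived in smaller cages than grouped mice, so that company and cage size cannot be told apart. Vaginal cytology was followed daily, and animals were killed in estrus at a fixed hour of the dark phase. Total RNA came from thoracic glands, and the labels do not say whether each array is a separate mouse or whether the grouped mice shared a cage. The p-values therefore measure the spread between these samples, which may in part be technical. Where values are said to be of grouped or isolated mice, they are values of arrays.

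The mammary gland is a tree of luminal and basal epithelium set in a fat pad, with fibroblasts, vessels, macrophages, mast cells and lymphocytes around the ducts. SV40 large T antigen binds and disables p53 and the retinoblastoma protein, and in this line the ducts pass through atypia to carcinoma. Mast cells store proteases, histamine and heparin in granules, macrophages clear debris and shape ducts, and adipocytes and secretory epithelium make lipid from glucose.

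Levels are log2 values, in which a difference of 1 is a doubling, and every difference is isolated minus grouped. A gene is said to pass where its adjusted p in limma, a linear model that shares information on spread between genes, was under 0.05. Defining genes of the gland were well detected: Krt8, Krt18, Epcam, Krt5, Krt14, Acta2, Adipoq and Fabp4 stood between the 70.9th and the 99.98th percentile of all genes. The median level was 8.09 to 8.11 in each of the 8 arrays. The isolated arrays were more alike than the grouped arrays. The mean SD of the differences between an array and the others of its group was 0.126 to 0.157 for isolated and 0.201 to 0.250 for grouped arrays, and 69.3% of genes had the larger SD in the grouped mice (64.6% without grouped replicate 1). Grouped replicate 1 also held high lymphocyte transcripts, described with the B and T cell genes. Many results are therefore given with and without it, and the rest are over 8 arrays unless stated. The difference between the 3' and 5' probe sets of Gapdh, a sign of RNA integrity, averaged -0.063 in grouped and -0.013 in isolated arrays (exact permutation test, two-sided p = 0.0571, where 70 splits allow no p below 0.0286).

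Housing was followed by few differences that passed over all genes, and 3 of the 8 were stored proteases of mast cells. In the fit of 8 arrays, 8 genes passed, or 0.044% of those tested. Mcpt4, Cpa3, Tpsb2 and Cxcl12 were lower in isolated mice, and Sorcs2, Sprr2f, Sbk1 and Ido1 were higher. Without grouped replicate 1, 16 genes passed (0.0879%), 4 higher and 12 lower, and 7 of the first 8 were among them. Those added were Klhl2, Igf1, Rarres2, Nnat, Jchain, Cd209a, Pcolce2 and Igkv8-30, all lower, and Pgm3, higher.

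**Figure D1:**
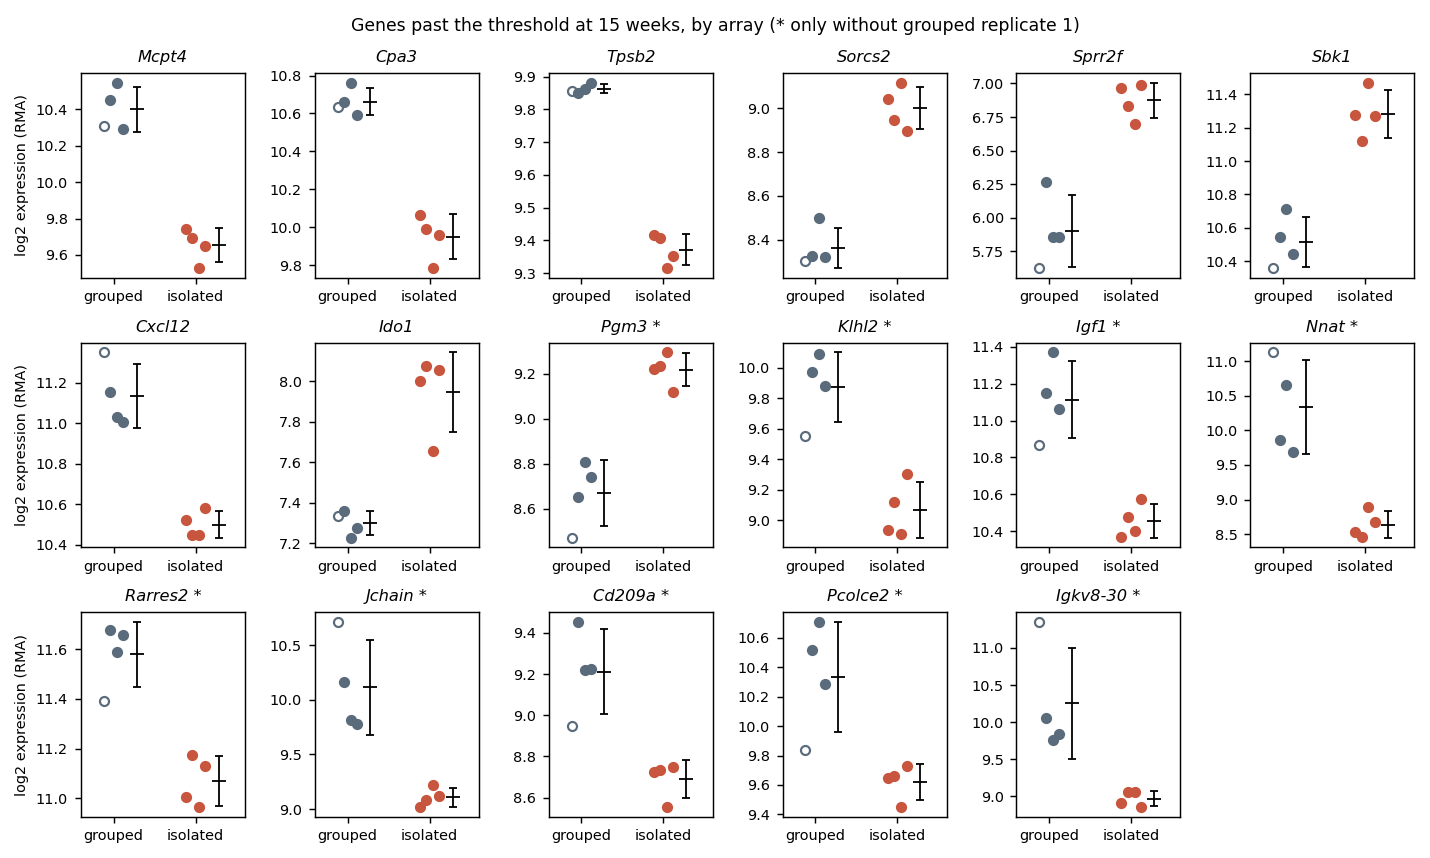
Log2 level of the 17 genes that passed in either fit, for each of the 8 arrays at 15 weeks, each gene on its own axis. Circles are arrays (grouped grey, isolated red, grouped replicate 1 open), and bars give the mean and SD of the 4 arrays. The groups are fully separated in every panel, and an asterisk marks genes that passed only without grouped replicate 1.

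The number of genes that pass rests on single arrays. It was 0 without isolated replicate 1 and 0 without isolated replicate 2 (limma, with 1124 and 1258 genes at an unadjusted p under 0.05), 2 without isolated replicate 3, 1 without grouped replicate 2 and 31 without grouped replicate 3. The smallest adjusted p without isolated replicate 1 was 0.0539 and without isolated replicate 2 it was 0.0601. With the Gapdh measure as a covariate 2 genes passed, of which Sprr2f was among the 8. In that fit Mcpt4 read -0.65 and Cpa3 -0.63, each with an adjusted p of 0.735. The measure ran from -0.090 to -0.034 in grouped and from -0.034 to 0.016 in isolated arrays. Without grouped replicate 1 its highest grouped value was -0.053, below every isolated one. Fits with this covariate therefore cannot well separate the measure from housing. The 16 genes of the fit without grouped replicate 1 fell to 0 after quantile normalization and to 0 after cyclic loess, where the smallest adjusted p was 0.0616 and 0.0612, and to 0 with the Gapdh covariate, where it was 0.241. In those 3 refits 2135, 2125 and 439 genes had an unadjusted p under 0.05.

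Mast cell granule genes were lower in the isolated gland. Mcpt4, a chymase of connective tissue mast cells, stood at 10.31, 10.45, 10.55 and 10.29 in grouped replicates 1 to 4 and at 9.74, 9.70, 9.53 and 9.65 in isolated replicates 1 to 4. All 4 isolated arrays lay below all 4 grouped arrays. The difference was -0.75 (SE 0.08, adjusted p = 0.0106), a level 1.68-fold lower. Cpa3, the carboxypeptidase stored beside the chymases, stood at 10.63, 10.66, 10.76 and 10.59 in grouped mice and at 10.06, 9.99, 9.78 and 9.96 in isolated mice. Its difference was -0.71 (SE 0.07, adjusted p = 0.0106), or 1.64-fold, again with no overlap. Tpsb2, a tryptase, was nearly constant in the grouped arrays, at 9.86, 9.85, 9.86 and 9.88, and lower in each isolated array, at 9.42, 9.41, 9.31 and 9.35. The difference was -0.49 (SE 0.05, adjusted p = 0.0106). A second, dimmer probe set for Tpsb2 (mean level 7.01) differed by only -0.02. All 3 also passed without grouped replicate 1, with differences of -0.78, -0.72 and -0.49 and an adjusted p of 0.0198 each. With grouped replicate 2 left out the differences were -0.73, -0.71 and -0.49 and the adjusted p was 0.0663 for each. None of the 3 passed without isolated replicate 1 or without isolated replicate 2 (adjusted p from 0.0539 to 0.0706). Without isolated replicate 3, Cpa3 passed (0.0471), but Mcpt4 (0.0552) and Tpsb2 (0.0646) did not.

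Most other genes of the mast cell granule had negative differences without passing. Cma1, a further chymase, read 10.94, 10.92, 10.99 and 10.68 in grouped and 10.49, 10.48, 10.19 and 10.35 in isolated mice, a difference of -0.51 (SE 0.09, adjusted p = 0.126) with no overlap. Of 14 measured granule genes, 12 had negative and 2 positive differences, with a median of -0.24. Over all genes 46.0% of differences were positive and the median was -0.01. This baseline depends on the genes and the scaling. Among genes above the 40th percentile of mean level 36.9% were positive, with a median of -0.03. After quantile normalization 53.9% of all genes were positive, with a median of 0.01. Small list medians and counts of signs here and below are to be read against that range. At an unadjusted p under 0.05, 8 granule genes were lower and 1 was higher, against 5.82% of all genes lower and 3.88% higher. The isolated arrays lay wholly below the grouped arrays for 8 of the 14, where 3.38% of all genes did so. For 1 of the 14, Hdc, the histamine-forming enzyme, they lay wholly above (+0.20), where 2.31% of all genes did so. The mean over the 14 genes was 9.03, 8.93, 8.96 and 8.93 in grouped and 8.73, 8.71, 8.62 and 8.70 in isolated replicates. The median was -0.15 without grouped replicate 1, and 12 of 14 stayed negative.

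Receptors and regulators of mast cells stayed near 0. Of 15 measured, 0 passed, 0 had an unadjusted p under 0.05, 10 differences were negative, and the median was -0.04. The smallest p-values belonged to Fcer1g (-0.20), a signalling chain shared with macrophages, Mitf (-0.16), a transcription factor of the lineage, Hpgds (-0.11) and Cd200r3 (+0.10). Kit, the receptor for stem cell factor, differed by 0.04, Fcer1a, the IgE-binding chain, by 0.01, and Gata2 by -0.01. These and Hdc were named after their values were seen. In bulk RNA fewer cells of a type and less RNA per cell cannot be told apart.

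Promoters are shown for Mcpt4 and Cpa3, which passed, and for Cma1, a further chymase with groups that did not overlap, because GATA factors are known regulators of mast cell genes. Each run is the RefSeq sequence (GRCm38.p6) from 250 bases before to 50 bases after the start of the gene, on its own strand. Capitals mark a GATA match on either strand, meaning the run AGATAA, or the same run with T as its first letter, with G as its last letter, or with both. The Mcpt4 window is chr14:56062261-56062560 on the minus strand, that of Cpa3 is chr3:20242132-20242431 on the minus strand, and that of Cma1 is chr14:55944626-55944925 on the minus strand.
Mcpt4: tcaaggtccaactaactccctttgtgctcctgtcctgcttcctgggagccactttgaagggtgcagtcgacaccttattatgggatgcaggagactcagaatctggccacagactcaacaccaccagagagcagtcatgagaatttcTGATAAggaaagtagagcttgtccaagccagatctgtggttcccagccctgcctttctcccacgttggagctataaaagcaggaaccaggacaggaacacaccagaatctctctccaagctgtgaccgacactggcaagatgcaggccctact
Cpa3: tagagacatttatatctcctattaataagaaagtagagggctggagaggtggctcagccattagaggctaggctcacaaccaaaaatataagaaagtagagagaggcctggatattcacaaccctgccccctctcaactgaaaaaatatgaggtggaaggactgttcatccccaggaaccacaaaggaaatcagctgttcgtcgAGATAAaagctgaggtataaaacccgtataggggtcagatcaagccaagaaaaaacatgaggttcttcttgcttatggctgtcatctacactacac
Cma1: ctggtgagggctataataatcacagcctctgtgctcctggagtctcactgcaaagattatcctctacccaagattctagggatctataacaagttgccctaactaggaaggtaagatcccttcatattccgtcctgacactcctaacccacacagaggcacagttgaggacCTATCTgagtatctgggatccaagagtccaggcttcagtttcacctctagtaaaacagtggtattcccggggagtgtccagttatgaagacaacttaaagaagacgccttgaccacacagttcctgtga
Counted from the start of the gene, the match begins at position -103 in Mcpt4, -46 in Cpa3 and -79 in Cma1. The windows of Slc18a2, the vesicular amine transporter, and of Hdc hold 2 matches and 1 match. Over all 32851 promoter windows of this length, 29.8% hold at least 1 such match. The E-box CATGTG, a form bound by Mitf, is in none of these 5 windows and in 14.2% of all. Tpsb2 and Tpsab1 were not matched in the promoter table. A match describes the letters of a window and is no evidence of binding.

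Among the genes that were higher in isolated mice, Sorcs2, a sorting receptor for neurotrophin precursors, read 8.301, 8.325, 8.499 and 8.320 in grouped and 9.04, 8.95, 9.12 and 8.90 in isolated mice. The difference was 0.64 (SE 0.07, adjusted p = 0.0106), or 1.56-fold, and 0.62 (adjusted p = 0.0198) without grouped replicate 1. The call for Sorcs2 was lost without grouped replicate 2 (adjusted p = 0.0669) and without isolated replicate 1 (0.0894), 2 (0.0601) or 3 (0.0569). Its relatives Sorcs1 (+0.10), Sorcs3 (-0.06) and Sort1 (+0.04) differed little, and Sorl1 read +0.25 (adjusted p = 0.377). In the list of Schwann cell and nerve genes, 16 of 22 differences were positive, with a median of 0.07 and only Sorcs2 passing.

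Sbk1, a serine and threonine kinase best known from brain, read 10.36, 10.55, 10.71 and 10.44 in grouped and 11.28, 11.12, 11.47 and 11.27 in isolated mice. It was 1.70-fold higher (difference 0.77, SE 0.10, adjusted p = 0.0250), and 0.72 without grouped replicate 1 (adjusted p = 0.0319). A second probe set gave 0.68. The call was lost when grouped replicate 2 (adjusted p = 0.117) or grouped replicate 4 (0.0715) was left out, and when any isolated array was (0.0601 to 0.167).

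Sprr2f, a small proline-rich protein of the cornified envelope that estrogen induces in the uterus, had the highest positive difference of the 8, at 0.97 (SE 0.12, adjusted p = 0.0250). Its levels were low, at 5.62, 6.27, 5.86 and 5.86 in grouped and 6.97, 6.83, 6.70 and 6.99 in isolated mice. The lower quartile of an array lay at 6.76 to 6.79, so all 4 grouped values and that of isolated replicate 3 lay below it. Other cornified envelope genes did not pass: of 29 measured, 19 differences were positive, the median was 0.03, and Krt13 (+0.14), Sprr1b (+0.26) and Krt6b (+0.26) followed Sprr2f by p. The call for Sprr2f was lost without grouped replicate 4 (adjusted p = 0.0715) and without each isolated array in turn (0.0569 to 0.167).

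Ido1, which opens the breakdown of tryptophan to kynurenine, read 7.33, 7.36, 7.23 and 7.27 in grouped and 8.0, 8.08, 7.66 and 8.06 in isolated mice. Every isolated value was higher, isolated replicate 3 least so. The difference was 0.65 (SE 0.09, adjusted p = 0.0488), close to the threshold, and the adjusted p was 0.0569 without grouped replicate 1. Among 17 measured genes of the kynurenine route 11 differences were positive, with a median of 0.03. Kmo, which hydroxylates kynurenine, read -0.24 with an unadjusted p under 0.05, while Tdo2 (+0.11) and Aadat (+0.10) did not reach that level. Genes of the interferon response, which also induces Ido1, were split into 14 positive and 14 negative of 28, with a median of -0.02 and 0 passing.

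Cxcl12, the ligand of Cxcr4 made by fibroblasts, read 11.35, 11.15, 11.03 and 11.01 in grouped and 10.52, 10.45, 10.45 and 10.58 in isolated mice. It was 1.56-fold lower (difference -0.64, SE 0.08, adjusted p = 0.0348), and -0.57 without grouped replicate 1 (adjusted p = 0.0198). Its other 2 probe sets read +0.22 and +0.06, so the probe sets of this gene disagree in direction. Quantile normalization moved its adjusted p to 0.109 at a difference of -0.56. Chemokines and their receptors leaned down with it: 25 of 31 differences were negative, the median was -0.15 (-0.06 without grouped replicate 1), and at an unadjusted p under 0.05, 8 were lower and 0 higher, against 5.82% and 3.88% of all genes. The next by p were Ccl11, the eosinophil attractant eotaxin (-0.45), Cxcr6 (-0.44) and the scavenger receptor Ackr3 (-0.23), none of which passed.

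Genes that passed without grouped replicate 1 include growth factor, fat cell and plasma cell transcripts. Igf1, the insulin-like growth factor that stromal cells supply to the ducts, read 10.87, 11.15, 11.37 and 11.06 in grouped and 10.37, 10.48, 10.40 and 10.58 in isolated mice. The groups did not overlap, and grouped replicate 1 was the nearest of the grouped arrays to the isolated ones. The difference was -0.66 (SE 0.10, adjusted p = 0.0783) over 8 arrays and -0.74 (SE 0.09, adjusted p = 0.0198), or 1.67-fold, without that array. All 4 probe sets of Igf1 were negative, at -0.61, -0.74, -0.66 and -0.51. After quantile normalization the value without grouped replicate 1 was -0.66 with an adjusted p of 0.0674. Among ErbB and IGF genes as a list, 15 of 24 differences were positive and the median was 0.05. Egf (+0.30), Igfbp4 (-0.21) and Igfbp6 (-0.24) were next by p and did not pass. Socs2, a feedback inhibitor induced by growth hormone, read -0.49 (adjusted p = 0.0787), with 10.31, 10.002, 10.23 and 10.10 in grouped and 9.58, 9.72, 9.70 and 9.69 in isolated mice.

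Nnat, an imprinted proteolipid of adipocytes and neurons, had the largest size of difference among the genes that passed. It read 11.13, 9.86, 10.66 and 9.68 in grouped and 8.53, 8.46, 8.89 and 8.68 in isolated mice. The grouped arrays spread over more than a log2 unit and the isolated arrays stayed below all of them. The difference was -1.70 (SE 0.27, adjusted p = 0.0795) and, without grouped replicate 1, -1.43 (SE 0.20, adjusted p = 0.0458), or 2.69-fold. Rarres2, which encodes the adipokine chemerin, read 11.39, 11.68, 11.59 and 11.66 in grouped and 11.01, 11.18, 10.96 and 11.13 in isolated mice. Its difference without grouped replicate 1 was -0.57 (SE 0.07, adjusted p = 0.0273), and its other probe sets gave -0.58 and, at a low level of 6.91, -0.05. Sncg, a synuclein abundant in fat, read -0.94 (adjusted p = 0.0787) and did not pass in either fit. Of 22 white adipocyte markers 13 were negative over 8 arrays, with a median of -0.05, and 2 were lower and 1 higher at an unadjusted p under 0.05. In the fit without grouped replicate 1, 17 were negative with a median of -0.11, and 6 were lower and 1 higher at that level, against 7.86% and 3.88% of all genes. Slc2a4 read +0.38 and Plin4 -0.37 over 8 arrays. Nnat stood at -1.70, whereas Adipoq read -0.14 and Fabp4 -0.07.

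Klhl2, an adaptor of cullin ubiquitin ligases, read 9.55, 9.97, 10.09 and 9.88 in grouped and 8.93, 9.12, 8.91 and 9.30 in isolated mice. It was 1.88-fold lower without grouped replicate 1 (difference -0.91, SE 0.10, adjusted p = 0.0198), and both of its probe sets were negative over 8 arrays. Pcolce2, an enhancer of collagen processing, read 9.84, 10.52, 10.70 and 10.29 in grouped and 9.65, 9.66, 9.45 and 9.73 in isolated mice. Grouped replicate 1 lay next to the isolated arrays, and without it the difference was -0.88 (SE 0.10, adjusted p = 0.0198). Cd209a, a lectin of dendritic cells, likewise read 8.95, 9.45, 9.22 and 9.23 in grouped and 8.73, 8.73, 8.55 and 8.75 in isolated mice, or -0.61 (SE 0.08, adjusted p = 0.0295) without that array. Pgm3, an enzyme of the hexosamine pathway, was higher, at 8.47, 8.65, 8.81 and 8.74 in grouped and 9.22, 9.23, 9.30 and 9.12 in isolated mice. Its difference was 0.48 (SE 0.07, adjusted p = 0.0407) without grouped replicate 1 and 0.55 (adjusted p = 0.0584) with it.

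**Figure D2:**
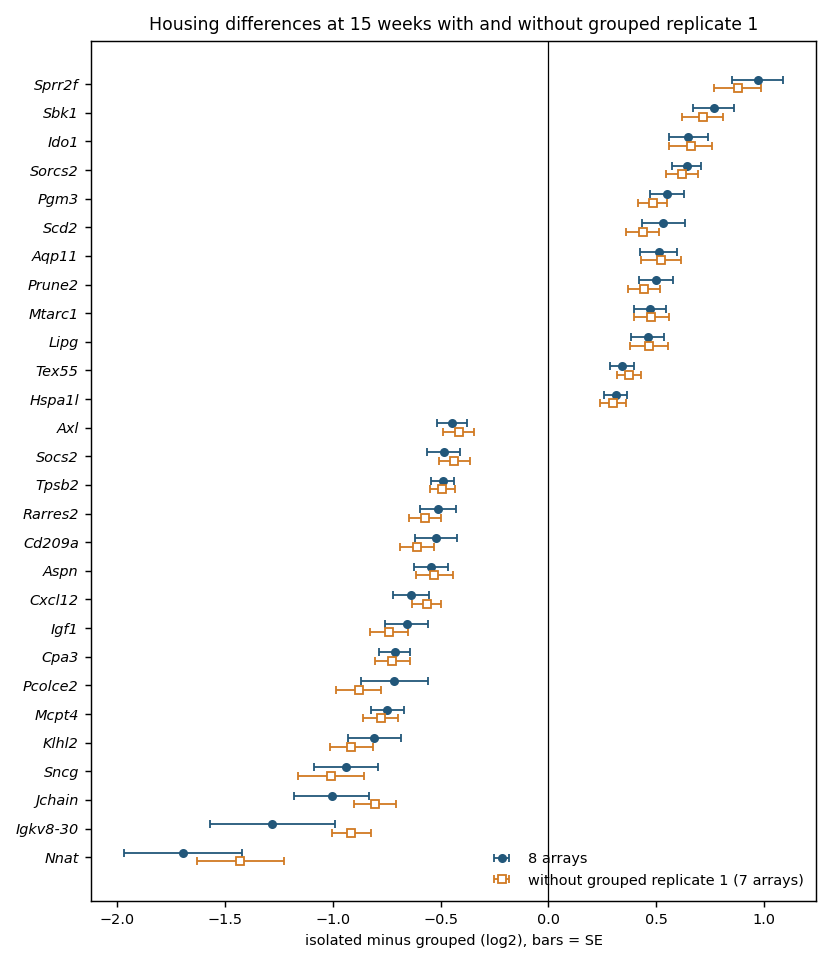
Isolated minus grouped (log2) with SE for the genes that passed in either fit and the 12 with the smallest p in each direction, over 8 arrays (filled circles) and without grouped replicate 1 (open squares). Directions are the same in both fits, which was fixed in advance because the groups did not overlap for any gene shown. The sizes of Nnat, Igkv8-30 and Jchain shrink without that array, to -1.43, -0.91 and -0.81.

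Among antibody transcripts, Jchain and Igkv8-30 passed only without grouped replicate 1. Jchain, the joining chain of IgA and IgM, read 10.72, 10.16, 9.81 and 9.77 in grouped and 9.01, 9.08, 9.22 and 9.12 in isolated mice. Igkv8-30, a kappa light chain variable gene, read 11.36, 10.06, 9.76 and 9.84 in grouped and 8.91, 9.06, 9.07 and 8.85 in isolated mice. Grouped replicate 1 was the highest array for both, yet the remaining grouped arrays also lay above all isolated ones. The differences were -1.01 and -1.28 over 8 arrays (adjusted p = 0.101 and 0.256). Leaving that array out made them smaller, and both passed, at -0.81 (SE 0.10, adjusted p = 0.0198) and -0.91 (SE 0.09, adjusted p = 0.0198). The array was left out because its lymphocyte transcripts were high, a choice that rests on values of this kind. For antibody genes the second fit is therefore no independent test, and no conclusion is drawn from their passing in it. Some kappa variable genes are closely alike in sequence, so the probe set may report on several of them.

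B and T cell markers in general had medians near 0 once grouped replicate 1 was left out. The mean over 20 B and plasma cell genes was 9.23 in that array, 8.37 to 8.43 in the other grouped arrays and 8.303 to 8.36 in the isolated arrays. The mean over 27 T and NK cell genes was 8.33 there, 7.75 to 7.78 in the other grouped arrays and 7.67 to 7.72 in the isolated arrays. Of the B and plasma cell genes 18 were negative with a median of -0.23 over 8 arrays, and 12 were negative with a median of -0.02 without that array. Among T and NK cell genes the same counts were 22 with a median of -0.15 and 18 with a median of -0.05. Xbp1, the transcription factor of secretory cells, read -0.27 over 8 arrays and -0.30 without it, and did not pass (adjusted p = 0.271 without it). The part that lymph node or lymphocyte content plays in these values was not tested.

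**Figure D3:**
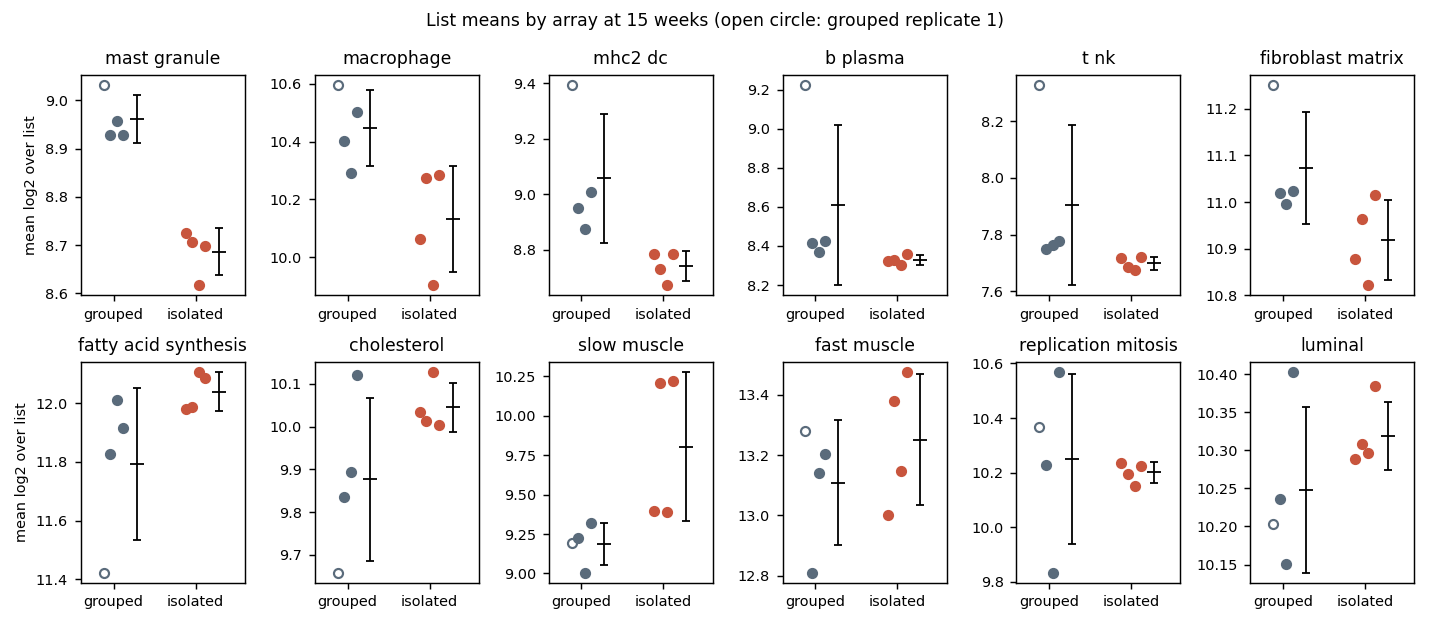
Mean log2 level over the members of 12 gene lists in each array at 15 weeks, with the mean and SD of each group as bars and grouped replicate 1 as an open circle. That array stands apart for B and plasma cell (9.23) and T and NK cell genes (8.33), and isolated replicates 2 and 4 stand apart for slow muscle genes (10.21 and 10.22).

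Macrophage genes were negative without exception but none passed. All 31 of 31 measured markers had a negative difference, with a median of -0.29, and 30 or more were negative when any 1 array was left out. At an unadjusted p under 0.05, 20 were lower and 0 higher, against 5.82% and 3.88% of all genes. The isolated arrays lay wholly below the grouped arrays for 10, against 3.38% of all genes. Tyrobp, the adaptor that signals for myeloid receptors, read 11.40, 11.27, 11.04 and 11.24 in grouped and 10.81, 10.89, 10.54 and 10.83 in isolated mice, a difference of -0.47 (SE 0.10, adjusted p = 0.205). Cd163, the haemoglobin scavenger receptor, differed by -0.71 (adjusted p = 0.256), Fcgr3 by -0.45 and Mrc1, the mannose receptor, by -0.40. The list means of the groups did not overlap, by a narrow margin, at 10.60, 10.40, 10.29 and 10.50 in grouped and 10.06, 10.27, 9.90 and 10.28 in isolated mice. Leaving out grouped replicate 1 gave a median of -0.27, with 31 of 31 negative and 17 at an unadjusted p under 0.05, where 7.86% of all genes were then lower at that level. With the Gapdh covariate the median was -0.17 and 27 of 31 were negative.

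Class II antigen presentation followed the same course. H2-DMa, which loads peptides onto class II molecules, read 9.43, 9.18, 9.20 and 9.28 in grouped and 8.79, 8.82, 8.81 and 8.97 in isolated mice, or -0.42 (SE 0.07, adjusted p = 0.0975). H2-Aa, the alpha chain of the class II molecule I-A, differed by -0.61 (adjusted p = 0.101) and H2-Ab1, its beta chain, by -0.57 (adjusted p = 0.193). Each separated the groups completely, though the array with high lymphocyte transcripts was the highest for all 3. Of 17 class II and dendritic cell genes, 16 were negative with a median of -0.27. The isolated arrays lay wholly below the grouped arrays for 8, against 3.38% of all genes. At an unadjusted p under 0.05, 9 were lower and 0 higher, against 5.82% and 3.88% of all genes. In the fit without grouped replicate 1, 13 were negative, the median was -0.17 and only Cd209a passed.

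Among fibroblast and matrix genes, small proteoglycans came first by p. Aspn, a small leucine-rich proteoglycan, read 9.47, 9.46, 9.57 and 9.23 in grouped and 8.94, 8.82, 8.82 and 8.97 in isolated mice. Its difference was -0.54 (SE 0.08, adjusted p = 0.0613), the same from both of its probe sets. Ogn, of the same family, differed by -0.55 (adjusted p = 0.0975), Pi16, a marker of adventitial fibroblasts, by -0.54 (adjusted p = 0.156), and Mfap5, a microfibril protein, by -0.39 (adjusted p = 0.206). Fibrillar collagens stayed near 0, with Col1a1 at -0.03, Col1a2 at -0.06 and Col3a1 at -0.04, values named after they were seen. Of 36 genes, 32 were negative with a median of -0.11, and 0 passed. At an unadjusted p under 0.05, 9 were lower and 1 higher, against 5.82% and 3.88% of all genes. The isolated arrays lay wholly below the grouped arrays for 9, against 3.38% of all genes, and wholly above for 0. Without grouped replicate 1, whose list mean of 11.25 exceeded the 10.99 to 11.02 of the other grouped arrays, 20 were negative and the median was -0.01. In that fit 12 were lower and 3 higher at an unadjusted p under 0.05, against 7.86% and 3.88% of all genes. Axl, a receptor tyrosine kinase of macrophages and stroma, read -0.45 (SE 0.07, adjusted p = 0.0787). Matrix proteases and inhibitors gave 13 of 21 negative, led by Timp2 (-0.30), Mmp23 (-0.18), Mmp2 (-0.26) and Mmp9 (-0.46), and a median of -0.07 that became 0.02 without grouped replicate 1. Of these 21, 5 were lower and 1 higher at an unadjusted p under 0.05 over 8 arrays. Without that array 6 were lower and 2 higher, against 7.86% and 3.88% of all genes.

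**Figure D4:**
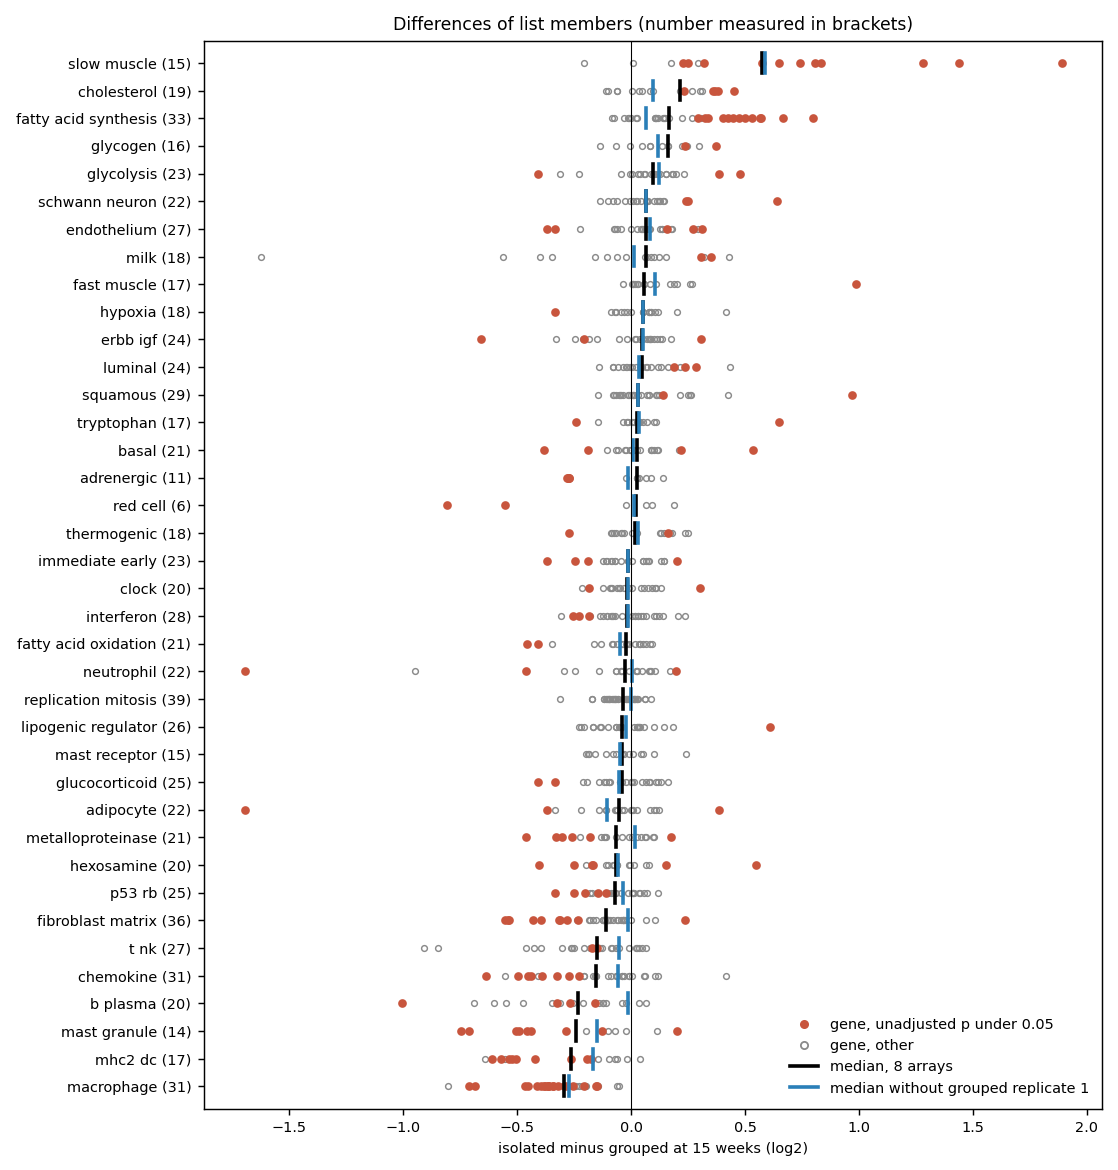
Isolated minus grouped (log2) for every measured member of the 38 gene lists, 1 row a list, ordered by median. Filled red points have an unadjusted p under 0.05, the black bar is the median over 8 arrays and the blue bar the median without grouped replicate 1. Macrophage genes lie to the left of 0 throughout (median -0.29), slow muscle genes to the right (0.58), and the B and T cell medians move toward 0 without that array.

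Lipid synthesis genes were on the positive side in isolated mice, short of the threshold. Scd2, a fatty acid desaturase, read 12.13, 12.47, 12.51 and 12.56 in grouped and 12.95, 12.83, 13.05 and 12.97 in isolated mice. All isolated values were above all grouped ones, by 0.53 (SE 0.10, adjusted p = 0.147). Acly, which makes acetyl-CoA from citrate, differed by 0.47 (SE 0.15, adjusted p = 0.381), reading 13.00, 13.50, 13.61 and 13.79 in grouped and 13.91, 13.87, 13.97 and 14.04 in isolated mice. Acaca, which makes malonyl-CoA, differed by 0.45 (SE 0.19, adjusted p = 0.492), from 12.05, 12.64, 13.09 and 12.96 to 13.07, 13.03, 13.24 and 13.18, with grouped replicate 3 above 2 of the isolated arrays. Pgd, a source of NADPH, read +0.57 (adjusted p = 0.313) and Lpin1, an enzyme of triglyceride assembly, +0.40 (adjusted p = 0.388).

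Grouped replicate 1 was the lowest array for much of this set. Of 33 fatty acid and triglyceride synthesis genes 28 were positive with a median of 0.16, and 13 were higher and 0 lower at an unadjusted p under 0.05, against 3.88% and 5.82% of all genes. For 9 the groups separated, against 2.31% of all genes in this direction. The list mean was 11.42 in grouped replicate 1, 11.83 to 12.01 in the other grouped arrays and 11.98 to 12.11 in the isolated arrays. Without it 25 were positive and the median was 0.06. In that fit 10 were higher and 1 lower at an unadjusted p under 0.05, against 3.88% and 7.86% of all genes. Acly then read 0.31 (adjusted p = 0.282) and Acaca 0.24 (adjusted p = 0.456). Cholesterol synthesis behaved alike, with 15 of 19 positive and a median of 0.21 over 8 arrays, 13 of 19 and 0.10 without that array. Its first genes by p were Dhcr7 (+0.45, adjusted p = 0.193), Lss (+0.38), Mvd (+0.37) and Fdft1 (+0.23).

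Regulators of lipid synthesis were less uniform than the enzymes. Mlxipl, the glucose-sensing factor ChREBP, read 11.05, 11.35, 11.44 and 11.19 in grouped and 11.81, 11.64, 12.18 and 11.83 in isolated mice, a difference of 0.61 (SE 0.12, adjusted p = 0.163) with no overlap. Srebf1 differed by 0.18 (adjusted p = 0.584), Irs2 by 0.14 and Rxra by -0.13, the last being +0.13 for the probe set of largest variance. Of 26 regulators 12 were positive, with a median of -0.04, and 1 had an unadjusted p under 0.05. Fatty acid oxidation genes had 13 of 21 negative and a median of -0.02, with Pdk4 (-0.41) and Ehhadh (-0.46) lowest by p.

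In glucose handling, Hk2, the hexokinase that traps glucose in the cell, read 11.58, 11.35, 11.75 and 11.79 in grouped and 11.98, 12.00, 12.32 and 12.07 in isolated mice. The difference was 0.48 (SE 0.11, adjusted p = 0.261), with no overlap, and 0.46 without grouped replicate 1. Slc2a4, the insulin-responsive transporter, read +0.38 (adjusted p = 0.334). Of 23 glycolysis genes 18 were positive with a median of 0.10, which was 0.02 without grouped replicate 2. Glycogen genes had 13 of 16 positive and a median of 0.16, or 0.04 without grouped replicate 2. The hexosamine pathway was mixed. Pgm3 passed without grouped replicate 1 as described, but Gnpnat1, the step before it, read -0.40 (adjusted p = 0.205), Uap1, the step after it, -0.25 (adjusted p = 0.332) and Gfpt2, at the entry, -0.17 (adjusted p = 0.447). Over 20 genes 14 were negative and the median was -0.07.

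Slow muscle transcripts had the largest median difference of the 38 lists, with the isolated arrays far apart among themselves. Of 15 slow fibre genes 14 were positive, with a median of 0.58, and 11 were higher at an unadjusted p under 0.05, against 3.88% of all genes. Only 1 separated the groups, where 2.31% of all genes did so in this direction, and 0 passed. Myl2, a myosin light chain of slow and cardiac fibres, read 7.60, 8.64, 7.36 and 7.79 in grouped and 8.57, 11.02, 8.43 and 10.94 in isolated mice. Isolated replicates 2 and 4 carried most of the difference of 1.89 (SE 0.58, adjusted p = 0.382). Myh7, the slow myosin heavy chain, read 6.92, 6.99, 6.46 and 6.90 against 7.30, 9.28, 7.13 and 9.31. Of 17 fast fibre genes 16 were positive, with a median of 0.06, which was -0.02 without grouped replicate 2. At an unadjusted p under 0.05, 1 was higher, Myh2 (+0.99, adjusted p = 0.330), and 0 lower, against 3.88% and 5.82% of all genes. The gland lies on skeletal muscle, and the share of muscle in the dissected tissue was not tested.

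Epithelial lists had medians near 0. Luminal markers had 16 of 24 positive and a median of 0.05, with Krt8 at +0.19 (adjusted p = 0.388), Krt19 at +0.29, Gata3, the luminal transcription factor, at +0.24 and Foxa1 at +0.43. Basal markers had 12 of 21 positive and a median of 0.03. Oxtr, the oxytocin receptor of myoepithelium, read 8.98, 9.54, 10.11 and 9.82 in grouped and 10.13, 10.13, 10.19 and 10.14 in isolated arrays. The difference was 0.54 (SE 0.19, adjusted p = 0.433), and the isolated arrays were almost identical. Milk genes had 10 of 18 positive and a median of 0.06, with Plin2, which coats lipid droplets, at +0.35 (adjusted p = 0.284) and Csn1s2b at +0.31. Endothelial genes had 20 of 27 positive and a median of 0.07, with Kdr at +0.27 and Vwf at +0.31 but Cd34 at -0.37.

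Proliferation genes had a median difference near 0 and a wide spread among the grouped arrays. Of 39 replication and mitosis genes 28 were negative, the median was -0.04, and 0 had an unadjusted p under 0.05. The list mean was 10.37, 10.23, 9.83 and 10.57 in grouped and 10.24, 10.20, 10.15 and 10.22 in isolated mice. The grouped arrays thus lay on both sides of the isolated ones, which were close together. Pcna, the clamp of the replication fork, read 13.01, 12.89, 12.48 and 13.31 against 12.78, 12.75, 12.66 and 12.81. Without grouped replicate 1, 19 of 39 were negative and the median was 0.001. The median was -0.17 without grouped replicate 3 and 0.05 without grouped replicate 4. Genes of the p53 and Rb pathways, which large T antigen disables, had 16 of 25 negative and a median of -0.07. At an unadjusted p under 0.05, 5 were lower and 0 higher, against 5.82% and 3.88% of all genes. Without grouped replicate 1, 1 was lower and 0 higher, against 7.86% and 3.88%. Cdkn2c, an inhibitor of Cdk4 and Cdk6, read -0.33 (adjusted p = 0.329).

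Lists that follow stress hormones had medians near 0. Glucocorticoid receptor targets had 15 of 25 negative and a median of -0.04. At an unadjusted p under 0.05, 2 were lower and 0 higher over 8 arrays, against 5.82% and 3.88% of all genes. Without grouped replicate 1, 5 were lower and 0 higher, against 7.86% and 3.88% of all genes. Nr3c1, the receptor itself, read -0.14 (adjusted p = 0.535), Angptl4 -0.33 and Errfi1 -0.21, and Fkbp5 and Per1, named after their values were seen, read 0.01 each. Adrenergic signalling had 6 of 11 positive and a median of 0.02, but 4 of 11 were lower and 0 higher at an unadjusted p under 0.05, against 5.82% and 3.88% of all genes. Those 4 were Crem (-0.28, adjusted p = 0.340), Creb1 (-0.27), which read +0.36 for the probe set of largest variance, Prkar2b (-0.28) and Pde3b (-0.27). Clock genes had 9 of 20 positive and a median of -0.02, with Npas2 at +0.30 (adjusted p = 0.330) and Clock at -0.18. Immediate early genes had 10 of 23 positive and a median of -0.02, and Klf2 was the lowest by value at -0.37. In none of these 4 lists did any gene pass.

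No gene that passed at 15 weeks passed at 20 weeks. Of the 17 genes that passed in either fit, 0 had an unadjusted p under 0.05 at 20 weeks and 6 had the same sign. Mcpt4 read 8.38, 7.96, 10.47 and 7.69 in grouped and 8.56, 9.996, 10.08 and 9.12 in isolated mice at that age, a difference of +0.81 (SE 0.59, adjusted p = 0.695). Cpa3 (+0.66) and Tpsb2 (+0.40) were likewise positive and did not pass. The test of the change in difference between the ages gave an adjusted p of 0.331 for Mcpt4, 0.328 for Cpa3 and 0.305 for Tpsb2. Macrophage genes, all negative at 15 weeks, were positive in 31 of 31 at 20 weeks with a median of 0.53. Fatty acid synthesis genes had 30 of 33 negative with a median of -0.54 and slow muscle genes 13 of 15 with -0.39. Lists were not tested for a difference between ages.

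Sprr2f was the gene of the 17 whose difference itself changed with age. Its levels at 20 weeks were 5.43, 5.68, 5.53 and 5.80 in grouped and 5.51, 5.50, 5.57 and 5.48 in isolated mice, so that both groups were dim and overlapped. The difference moved from 0.97 to -0.10, an interaction of -1.07 (SE 0.15, adjusted p = 0.0352). When each of the 16 arrays was left out in turn the interaction passed in 7 refits, with adjusted p from 0.000984 to 0.139; without grouped replicate 1 at 15 weeks it was 0.0510. Sbk1 moved from 0.77 to -0.38 (interaction adjusted p = 0.127), Ido1 from 0.65 to -0.02 (0.174) and Pgm3 from 0.55 to 0.08 (0.156).

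**Figure D5:**
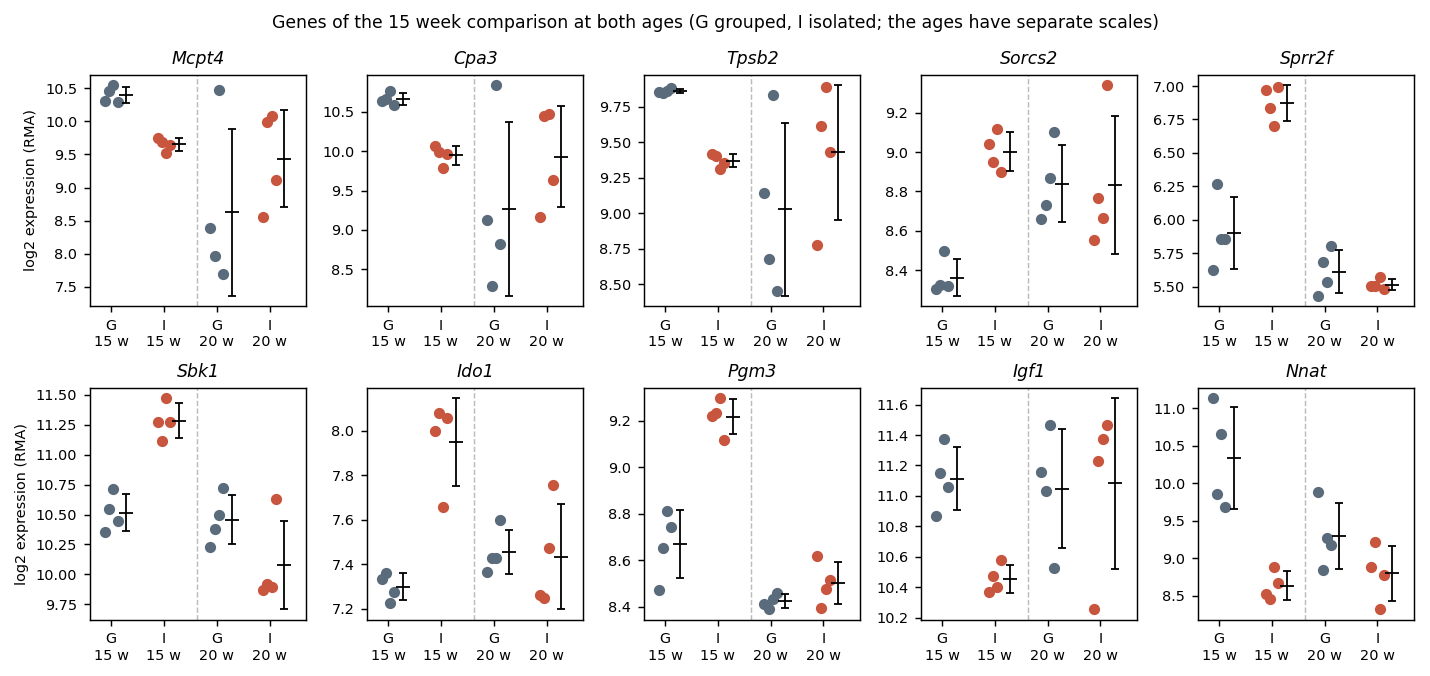
Log2 level of 10 of the genes that passed at 15 weeks, in the 4 arrays of each housing group at 15 and 20 weeks, with mean and SD as bars. Levels of different ages were not compared, since the arrays of each age had a distribution of their own. The separation seen at 15 weeks is absent at 20 weeks, where Mcpt4 in grouped mice ran from 7.69 to 10.47.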

How the data were processed

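Total RNA (6 micrograms a sample) was hybridised to Affymetrix mouse arrays. The deposited values are log2 expression made by the authors with RMA in affy, per the submitters' processing notes; versions are not given in the sources used here. Of 45101 probe sets, 34945 had 1 gene symbol in the platform table, 932 had several and 9211 were not listed. Each of 18193 genes was represented by its probe set of highest mean over the 16 arrays, with no filter. The 8 arrays were fitted with limma 3.58.1 in R 4.3.3 (lmFit, eBayes with trend) and Benjamini-Hochberg adjustment over all genes, then refitted without grouped replicate 1; the interaction used 16 arrays. Arrays carry no depth, so their number limits precision. Genes named are those that passed, the 12 smallest p-values in each direction, up to 4 per list, and Acaca, Acly and Hk2, besides those marked as chosen later. The comparison, the 38 lists (813 genes measured) and the left-out array were chosen with earlier results of these data known. On simulated data the 8-array fit recovered 79 of 100 changes of 0.5 and 98 of 100 changes of 1 on the log2 scale. The simulated noise was normal, independent between genes and of the same SD in both housing groups. In the real arrays 69.3% of genes had the larger SD in the grouped ones, so these shares need not hold for them. Replicate numbers were not taken to pair the arrays. Alternatives were other normalizations, filters, probe sets, priors, weights, covariates and leaving out arrays.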

Additional observations from a re-analysis of the deposited data

Results flagged for a closer look

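Of 110 groups of 4 arrays checked, 6 had 1 array far from the other 3 by Dixon's ratio, and chance alone gives about 1 in 20. The high lymphocyte transcripts of grouped replicate 1 were known beforehand. Its B and T cell means below are therefore no new finding, and the count of 6 cannot be weighed against chance. Single genes among them were Cd209a in isolated replicate 3 at 8.55 (others 8.73 to 8.75), and Sorcs2 in grouped replicate 3 at 8.50 (others 8.301 to 8.325). List means of grouped replicate 1 stood apart for B and plasma cell genes at 9.23 (others 8.37 to 8.43), T and NK cell genes at 8.33 (others 7.75 to 7.78) and fibroblast and matrix genes at 11.25 (others 10.99 to 11.02). The glycolysis mean stood apart in grouped replicate 2 at 11.26 (others 11.49 to 11.50).

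Sprr2f differed between the ages in its response to housing, with an interaction of -1.07 (limma, adjusted p = 0.0352). Outside the genes with a single symbol, 10092 probe sets were tested apart. None passed over 8 arrays (limma, 862 with an unadjusted p under 0.05), and without grouped replicate 1 a probe set that maps to 5 symbols passed with a difference of -0.86 (adjusted p = 0.0321).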

How the results depend on the processing

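Over 8 arrays the 8 genes became 6 after quantile normalization or cyclic loess, 4 over every probe set, 494 with array weights, 27 at a threshold of 0.1, 2 with the 20 week arrays in the fit, 2 with the Gapdh covariate, 28 with the actin covariate and 17 with the replicate block. Leaving out 1 array gave 0 to 31. Without grouped replicate 1 the 16 genes became 0 after quantile normalization, 0 after loess, 0 with the Gapdh covariate, 0 with the replicate block, 7973 with array weights, 48 at the threshold of 0.1, 3 with the 20 week arrays and 45 with the actin covariate. Leaving out a further array gave 0 to 237. The array weights of that fit stopped before convergence, with a weight of 36.6 on grouped replicate 2; weights estimated per housing group, chosen after seeing the data, gave 11 genes over 8 arrays and 13 without grouped replicate 1. The count at 20 weeks was 2 (0 to 136 with 1 array left out) and that of the interaction 2 (0, 1, 5, 13, 86 or 139 where it moved, so 0 to 139). The cause of these changes was not tested.

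The replicate numbers were not taken to pair the arrays, since not every pair was over 0.1: same-numbered deviations correlated at 0.10, -0.10, 0.36 and 0.36, and 3 of 4 grouped arrays and 2 of 4 isolated arrays correlated best with their own number. Of 162 named genes 10 changed sign somewhere. With the largest-variance probe set Krt13 read -0.067, Creb1 0.36 and Rxra 0.13. With the Gapdh covariate Alas2 read 0.12, Kcnk3 -0.069, Btn1a1 -0.0067, Mitf 0.011, Ccne2 0.10, Gmnn 0.12 and Atp2a1 -0.10. The 17 genes that passed kept their direction in all alternatives run. For refits that left out arrays this was fixed in advance, because the groups did not overlap for any of the 17. Other thresholds and priors leave the difference itself unchanged, so the kept direction is little evidence of stability. Cxcl12 was read from the same probe set in every alternative, and its other probe sets, at +0.22 and +0.06, did not count as a change of sign.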

Other observations

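Red cell and neutrophil genes varied among the grouped arrays. Hbb-b2, a beta globin, read 8.08, 9.998, 9.35 and 8.86 in grouped and 8.09, 8.45, 8.27 and 8.26 in isolated mice, a difference of -0.81 (SE 0.31, adjusted p = 0.463) and, without grouped replicate 1, -1.14 (adjusted p = 0.111). S100a8, a calcium-binding protein of neutrophils, read 10.18, 7.35, 6.57 and 9.15 in grouped and 6.47, 6.70, 6.44 and 6.85 in isolated mice. Its difference was -1.70 (SE 0.63, adjusted p = 0.451), carried by grouped replicates 1 and 4. Over 22 neutrophil and acute inflammation genes 12 were negative, with a median of -0.02. At 20 weeks 37.4% of genes had the larger SD in grouped mice, where 69.3% did at 15 weeks, and this contrast was not tested.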
